A study of Mus musculus with 24 samples.

Results

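Cytosolic ribosomal protein genes were followed through 24 chromatin profiles of intestinal group 3 innate lymphoid cells (ILC3s). The members were the protein-coding genes whose mouse symbol reads Rpl or Rps followed by a digit, without the Rps6k kinases, symbols ending in l and pseudogenes; 79 of 21631 protein-coding genes on the 19 autosomes and the X chromosome met this rule. Of the 79, 43 encode large-subunit proteins, 30 encode small-subunit proteins, 2 are paralogs (Rpl22l1 and Rpl7l1), and 4 carry the symbol without being a ribosomal protein gene of the usual kind (Rps19bp1, Rpl37rt, Rps27rt and Rps23rg1). A member counted as carrying a peak in a library when a deposited peak overlapped, by 1 b or more, a window of 1000 b on either side of its annotated start or end.

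ILC3s are tissue-resident lymphocytes of the gut. They came from mouse small intestine and were sorted as CCR6+, NKp46+ or DN cells, DN being the labels' own abbreviation. KO and WT mice were profiled by CUT&Tag, in which an antibody tethers a transposase to chromatin. KO stands for Cxxc1flox/flox with a Cre allele and WT for Cxxc1flox/flox alone, so floxed Cxxc1 alleles are shared by all groups and the Cre is the difference. Each of the 12 groups of genotype, subset and antibody (CFP1 or H3K4me3) held 2 libraries of 100000 cells, from mice labelled 6 to 8 weeks old, although their protocols mention young and aged animals as well as a medium for culture. Whether replicates were separate animals is not stated, and every p-value here therefore reflects the spread among libraries, which may be technical.

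Ribosomal protein genes supply the protein part of the cytosolic ribosome, and their products are made in matched amounts, so these genes are active in nearly every cell and more so in cells that grow. Their messages typically begin with a run of pyrimidines, the terminal oligopyrimidine (TOP) tract, through which mTORC1 controls their translation. CFP1, the product of Cxxc1, binds unmethylated CpG DNA and brings the SET1 methyltransferases to CpG-rich promoters, where they lay down trimethylation of histone H3 lysine 4 (H3K4me3), which marks the starts of active genes.

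The CFP1 lists of the KO genotype were not alike. KO DN replicate 2 held 8881 CFP1 peaks and KO NKp46+ replicate 2 held 4891, whereas the other KO lists held 714 to 1312 and the WT lists 4574 to 7983. Whether the genotype labels of these 2 KO libraries are correct could not be checked here, and every KO value of CFP1 below rests on them as labelled. The per-gene test of CFP1 below is therefore also given without these libraries, a choice made with their list lengths known. Most other CFP1 summaries over KO libraries below include them. At Cxxc1 itself, CFP1 was listed in 0 of 6 KO and 2 of 6 WT libraries and H3K4me3 in 6 of 6 of both genotypes, which does not check the deletion because the labels do not name the deleted part. Of 8 ILC3 identity genes, a mean of 3.67 carried H3K4me3 in KO libraries and 4.83 in WT libraries, and Id2 did in 6 KO and 6 WT libraries. The lists hold no read counts, so sequencing depth is unknown and a missing peak means only that none was called.

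H3K4me3 marked nearly every ribosomal protein gene in both genotypes. The mark was present at the gene ends of 70 of 79 members in all 12 libraries, which is 88.6% of members against 42.8% of all protein-coding genes. Of the mitochondrial ribosomal protein genes, 72 of 78 were marked in all 12 libraries, and of 303 ribosomal protein pseudogenes, copies of these genes that are usually silent, 0 were. Per library, 70 to 72 members were marked in KO cells and 70 to 73 in WT cells. With peaks ranked by fold enrichment inside each library's own list, the members' median percentile was 61.0 to 70.5 in KO and 70.03 to 77.0 in WT lists; lists of different length make such ranks a description only.

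The 9 exceptions fell into 3 kinds. Rps19bp1, Rpl37rt, Rps27rt and Rps23rg1, which are a binding partner of Rps19 and copies of ribosomal protein genes, had no H3K4me3 at the gene ends or in the gene in any library. Rpl17, Rpl22, Rps2 and Rpl19 lacked it at their annotated ends in 6 or more of the 12 libraries but carried it inside the gene in all 12. The RefSeq promoter table places the Rps2 start at position 24720063 of chromosome 17 (plus strand), inside the annotated gene (24718121 to 24721927), and the WT DN replicate 2 peak at 24719440 to 24721134 spans that position. Counting the whole gene plus 1000 b on either side, 74 of 79 members (93.7%) were marked in all 12 libraries, against 47.6% of all genes. The remaining member was Rps25, a small-subunit protein that some viral internal ribosome entry sites require. At its gene ends H3K4me3 was listed at 980 b width in KO CCR6+ replicate 2, and at 1210, 896 and 1167 b in the WT CCR6+, NKp46+ and DN libraries of replicate 2, and in no library of replicate 1.

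Presence of H3K4me3 could be tested between genotypes at 3 members, those present in 2 to 10 of 12 libraries, and 0 were called by two-sided Fisher's exact tests with Benjamini-Hochberg adjustment, against 0 of 1877 genes tested (0%). At an unadjusted p under 0.05, 0 members were called, against 35 genes, of which 15 had fewer KO libraries (0.799%) and 20 had more (1.07%). Rps25 and Rps2 each had 1 KO and 3 WT libraries, and Rpl19 had 4 KO and 2 WT libraries; these peaks ranked between the 0.319 and the 30.4 percentile of their lists.

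CFP1 was listed at fewer ribosomal protein genes in KO than in WT cells in every subset, with 1 KO library as the exception. In CCR6+ cells, 9 and 6 members carried CFP1 in the KO libraries (replicates 1 and 2), against 40 and 43 in the WT libraries. In NKp46+ cells there were 1 and 20 members in KO, against 39 and 33 in WT, and in DN cells 5 and 42 in KO, against 37 and 40 in WT. The WT libraries lay close together, whereas the KO libraries spread widely and KO DN replicate 2 lay within the WT range. The mean was 13.8 ± 15.2 members in KO and 38.7 ± 3.39 in WT (SD, n = 6 each), and by replicate number it was 5 in KO and 38.7 in WT for replicate 1, and 22.7 in KO and 38.7 in WT for replicate 2.

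All members with CFP1 at a gene end were among the 70 with H3K4me3 in all 12 libraries. Of these 70, an average of 19.8% carried CFP1 in a KO library and 55.2% in a WT library. Of all 9253 protein-coding genes with H3K4me3 in all 12 libraries (marked genes below), 21.4% did in KO and 49.5% in WT. The members' share lay above that of marked genes in 6 of 6 WT libraries and in 2 of 6 KO libraries, a description with no test. Large-subunit genes averaged 7.67 per library in KO and 22.3 in WT of 43, and small-subunit genes averaged 5.17 in KO and 14.7 in WT of 30.

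**Figure D1:**
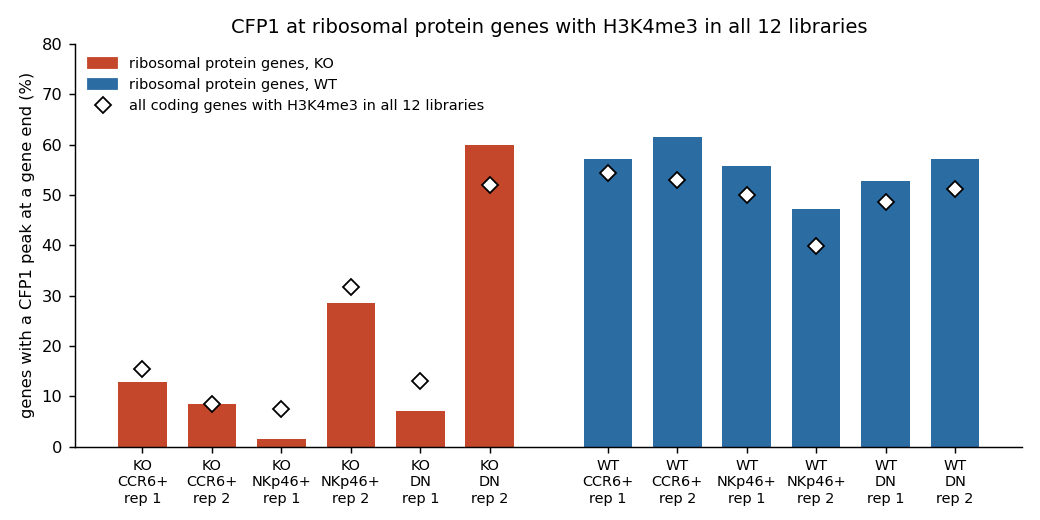
Share of the 70 ribosomal protein genes with H3K4me3 in all 12 libraries that carry a CFP1 peak (bars, %, KO left of WT) and the same share of all 9253 such genes (diamonds), per library. WT bars lie between 47.1% and 61.4%; KO bars lie between 1.43% and 60%, with KO DN replicate 2 highest.

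CFP1 occupancy varied from member to member. It was listed in all 6 WT libraries at 19 members, in 1 to 5 at 39 and in none at 21; of the 70 marked members, 27.1% had CFP1 in all 6 WT libraries, against 26.4% of marked genes. Fewer KO than WT libraries carried CFP1 at 55 of 79 members, including 47 of the 51 that could be tested (92.2%, against 91.2% of 5741 genes tested), 21 were equal and 3 had more KO libraries (Rpl36, with 2 KO and 0 WT, and Rpl18 and Rpl39, each with 1 KO and 0 WT). Of these 3, only Rpl36 was tested, so 1 of 51 tested members had more KO libraries (1.96%), against 1.55% of genes tested. The Rpl18 count leaves out its start, which lies inside the gene and outside the gene-end windows. With the whole gene counted, Rpl18 had CFP1 in 1 KO and 1 WT library, and 2 members had more KO libraries. No member had CFP1 in all 12 libraries, against 2.31% of marked genes.

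The highest occupancy was that of Rpl22l1, the paralog of Rpl22 whose level rises in mice when Rpl22 is lost, and of Rps19, the gene most often mutated in Diamond-Blackfan anaemia; both had 5 KO and 6 WT libraries. The Rpl22l1 peak was 349, 451, 513, 583 and 608 b wide in the KO libraries that held it (CCR6+ replicates 1 and 2, NKp46+ replicates 1 and 2, and DN replicate 2), against 603, 616, 613, 626, 627 and 573 b in the WT libraries. It was the strongest peak of its whole list in KO DN replicate 2, and its median percentile by fold enrichment in WT was 99.8, followed among members by Rps19 (96.0), Rpl30 (94.1), Rps26 (80.2) and Rpl21 (79.6). The Rps19 peak was 329, 391, 505, 532 and 824 b wide in KO and was missing from KO NKp46+ replicate 1, against 645, 645, 813, 526, 631 and 637 b in WT. Both genes thus had a called peak in KO lists in which most members had none.

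Rpl4, Rpl38 and Rps29 were among those that followed, with 3 KO and 6 WT libraries each. Rpl4 lines the tunnel through which the new peptide leaves the ribosome, and Rpl38 is required in mouse embryos for the translation of a set of Hox messages. A further 9 members had 2 KO and 6 WT libraries, and KO DN replicate 2 was 1 of those 2 KO libraries in each: Rpl5, Rpl7, Rpl7a, Rpl29, Rpl37, Rps18, Rps20, Rps23 and Rps27a. Rpl5 belongs with Rpl11 and 5S RNA to the particle that inhibits Mdm2, and Rps27a is made as a fusion with ubiquitin.

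The largest differences were at 6 members, each 5 libraries apart. Rps6, the S6 kinase substrate downstream of mTORC1, had a CFP1 peak of 699 b in KO DN replicate 2 and none in the other 5 KO libraries, against 559, 673, 551, 457, 456 and 595 b in the WT libraries. Rpl30 had 728 b in KO DN replicate 2, against 738, 733, 660, 385, 728 and 744 b in WT. Rpl34 and Rpl27, large-subunit proteins, showed the same pattern, with 666 b and 914 b in KO DN replicate 2 as their only KO peak and a peak in all 6 WT libraries. Rps21 and Rps7 had none in KO and 5 WT peaks each. Rps21, whose H3K4me3 peak also touches the window of its neighbour Cables2, lacked CFP1 in WT NKp46+ replicate 2. Rps7, another Mdm2-binding protein, lacked CFP1 in WT CCR6+ replicate 2. The genotypes were separated at these 6 members in every subset and replicate, except as follows. Rps6, Rpl30, Rpl34 and Rpl27 were not separated in DN replicate 2, Rps21 not in NKp46+ replicate 2 and Rps7 not in CCR6+ replicate 2.

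In the per-gene test, 0 of 51 members tested were called after adjustment over 5741 genes, of which 0 (0%) were called (two-sided Fisher's exact tests, Benjamini-Hochberg). At an unadjusted p under 0.05, 6 of 51 members (11.8%) had fewer KO libraries, against 431 genes (7.51%), and 0 members or genes had more; the 6 are those above, each with an exact p of 0.0152 and an adjusted p of 0.202. Without KO DN replicate 2, 4 members passed at an adjusted p of 0.0443, namely Rpl34, Rps6, Rpl27 and Rpl30, among 267 of 5467 genes (4.88%). At an unadjusted p under 0.05 this left 16 members and 23.4% of genes. Without KO NKp46+ replicate 2 alone, 0 members passed and 13 had an unadjusted p under 0.05 (25.5%), against 927 of 5691 genes (16.3%). Without both, 11 members passed at an adjusted p of 0.0344, among 747 of 5392 genes (13.9%): those 4 and Rpl7, Rpl7a, Rpl37, Rps18, Rps20, Rps23 and Rps27a. Then 21 members and 38.3% of genes had an unadjusted p under 0.05. With libraries paired by subset and replicate number (replicate block), 0 members had an unadjusted p under 0.05, against 56 genes (0.975%). The smallest p this exact sign-flip test can give, 0.0312, needs 6 WT and 0 KO libraries, a pattern that 0 members had. The 56 genes with that pattern were not called by Fisher's exact test on all 12 libraries after adjustment either. That test could therefore call no pattern here, and its 0 members called do not show equal CFP1 presence.

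**Figure D2:**
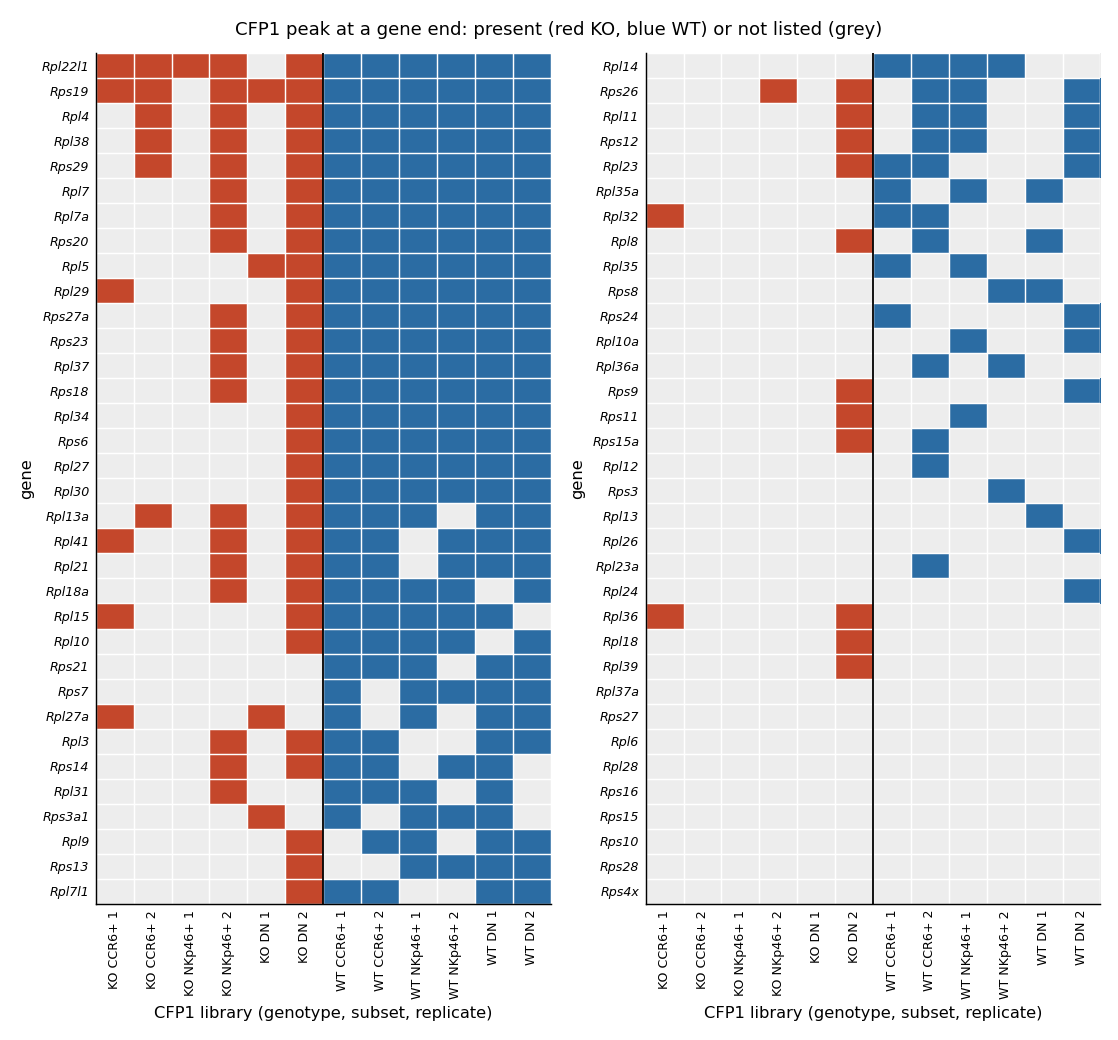
CFP1 peaks at 68 of the 70 marked ribosomal protein genes (rows, sorted by the number of WT and then KO libraries) in 12 libraries (columns, KO left of WT); coloured cells mark a listed peak. The WT columns are all filled for 18 genes, the KO columns are filled mainly in the DN replicate 2 column (40 of these genes), and the last 9 genes have no CFP1 peak in any library.

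The subsets differed in how cleanly the genotypes separated. In CCR6+ cells, 34 members had CFP1 in both WT libraries, and 23 of them (67.6%) had it in neither KO library, against 59.1% of all genes with both WT peaks. In NKp46+ cells this held for 14 of 27 members (51.9%), against 26.5% of genes, and in DN cells for 2 of 29 members (6.90%), against 10.4%. The reverse pattern, both KO and neither WT library, occurred at 0 members in each subset. The members of KO DN replicate 2 were mostly those of WT cells, since 31 of its 42 had CFP1 in 4 or more WT libraries, 33 had it in WT DN replicate 2, and 3 had it in no WT library. In KO NKp46+ replicate 2, 19 of 20 had CFP1 in 4 or more WT libraries. So did 7 of 9 members in KO CCR6+ replicate 1 and 6 of 6 in KO CCR6+ replicate 2. In KO NKp46+ replicate 1 it was 1 of 1, and in KO DN replicate 1 it was 5 of 5. This overlap with WT cells was therefore not particular to the KO libraries with long lists, and its share over all genes is not given here.

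CFP1 was listed in none of the 12 libraries at 18 members. Of these, 9 had H3K4me3 at their ends in all 12 libraries: Rpl6, Rpl28, Rpl37a, Rps4x, Rps10, Rps15, Rps16, Rps27 and Rps28. This was 12.9% of the 70 marked members, against 23.7% of marked genes. The other 9 were the exceptions in H3K4me3. Where the mark lay inside the gene, CFP1 did too: with the whole gene counted, CFP1 was listed at Rpl22 in 2 KO and 6 WT libraries, at Rpl17 in 0 KO and 5 WT, at Rpl19 in 1 KO and 5 WT, and at Rps2 in 1 KO and 4 WT.

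The promoters of the members with the most and the fewest CFP1 libraries are shown because CFP1 recognises CpG. Each run holds 150 b before and 15 b from the annotated start, with every CpG in capitals, from RefSeq (GRCm38.p6, the build of mm10). The first 3 are the members with the most CFP1 libraries that have 1 entry in the promoter table, and the last 3 are the first of those with CFP1 in 0 libraries and H3K4me3 in 12.
Rpl22l1: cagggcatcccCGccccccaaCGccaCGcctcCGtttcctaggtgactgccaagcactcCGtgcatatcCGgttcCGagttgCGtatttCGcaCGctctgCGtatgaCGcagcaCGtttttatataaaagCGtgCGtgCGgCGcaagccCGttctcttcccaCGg
Rpl4: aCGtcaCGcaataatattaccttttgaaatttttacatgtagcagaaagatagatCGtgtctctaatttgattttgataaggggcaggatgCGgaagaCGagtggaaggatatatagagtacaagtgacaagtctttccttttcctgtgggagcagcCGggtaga
Rpl38: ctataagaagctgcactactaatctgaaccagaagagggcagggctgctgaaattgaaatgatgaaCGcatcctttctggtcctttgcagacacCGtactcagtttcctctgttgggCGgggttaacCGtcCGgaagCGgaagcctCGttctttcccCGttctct
Rpl28: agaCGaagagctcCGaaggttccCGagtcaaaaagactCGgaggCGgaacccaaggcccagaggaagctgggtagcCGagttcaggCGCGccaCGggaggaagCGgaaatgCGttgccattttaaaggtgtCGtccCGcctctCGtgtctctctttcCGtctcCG
Rpl37a: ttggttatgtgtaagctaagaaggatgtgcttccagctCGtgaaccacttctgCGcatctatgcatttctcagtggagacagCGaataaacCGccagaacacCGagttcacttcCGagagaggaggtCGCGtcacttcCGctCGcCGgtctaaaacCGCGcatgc
Rpl6: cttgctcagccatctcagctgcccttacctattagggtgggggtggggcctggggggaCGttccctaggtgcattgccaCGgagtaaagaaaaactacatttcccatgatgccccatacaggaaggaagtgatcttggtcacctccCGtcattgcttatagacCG
The runs lie on the plus strand at chr3:28805358-28805522 (Rpl22l1), chr9:64173237-64173401 (Rpl4), chr11:114668430-114668594 (Rpl38), chr7:4792815-4792979 (Rpl28), chr1:72711110-72711274 (Rpl37a) and chr5:121204351-121204515 (Rpl6). They hold 19, 6 and 8 CpGs for Rpl22l1, Rpl4 and Rpl38, and 16, 13 and 4 for Rpl28, Rpl37a and Rpl6, so promoters with few and with many CpGs stood on both sides.

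Promoter CpG content did not order the members by CFP1 occupancy. The table matched 60 of the 79 members, 52 of them with a single entry of 300 b (250 b before to 50 b after the start), and 46 of these were marked. The 46 held a median of 21 CpGs per 300 b (range 8 to 35), against 22 for 6179 marked genes and 13 for all 14507 genes with a single entry. Members with CFP1 in 5 or 6 WT libraries held a median of 18 CpGs (15 genes) and those with 0 or 1 held 21 (18 genes), whereas marked genes with 5 or 6 WT libraries held 25 (2296 genes) and those with 0 or 1 held 19 (2354 genes). Across genes, which are not independent replicates and share the libraries, Spearman's rho of CpG count with WT CFP1 libraries was −0.05 over the 46 members and 0.25 over the 6179 marked genes, given as a description. Rps10, with 31 CpGs and 72.3% GC, had CFP1 in 0 libraries, while Rpl4, with 13 CpGs and 40.7% GC, had 3 KO and 6 WT libraries.

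The promoters shared letters that the choice of members did not use. The start region is shown for 6 of the 11 members, 3 per subunit in symbol order, whose annotated first base begins a TOP-like run, here a C followed by 4 or more pyrimidines. Each run holds 20 b before and 10 b from the start, with the pyrimidine run in capitals.
Rpl14: cggcagggcgggccctctctCTTCTCgctg
Rpl15: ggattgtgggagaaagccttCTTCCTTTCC
Rpl28: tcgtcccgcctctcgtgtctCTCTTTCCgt
Rps10: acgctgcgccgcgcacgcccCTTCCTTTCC
Rps15a: gcccactctctttctgccatCTTCCCTCgc
Rps18: acttatacgtcacttccgctCTCTCTTCCa
These lie at chr9:120571497-120571526 (Rpl14, plus strand), chr14:18270977-18271006 (Rpl15, minus), chr7:4792945-4792974 (Rpl28, plus), chr17:27635235-27635264 (Rps10, minus), chr7:118116138-118116167 (Rps15a, minus) and chr17:33955656-33955685 (Rps18, minus). Of the 46 marked members with a single entry, 21.7% had such a run at the annotated base, against 2.22% of marked genes, and 54.3% had one within 10 b on either side, against 32.1%. In the 300 b, searched on both strands, CCGGAA, the core of ETS sites, was in 52.2% of the members and 33.6% of marked genes, and AAGATGG, a YY1 core, in 17.4% and 8.33%. GGGCGG, the GC box, was in 58.7% of the members and 69.1% of marked genes, CCAAT in 28.3% and 40.7%, TATAAA in 8.70% and 6.18%, and CACGTG, the E-box, in 6.52% and 10.7%. These motifs do not contain one another, a match is not a bound site, and a missing match says only that the letters are not in the window.

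Most members had no CFP1 width to compare, since 0 members had a peak in all 12 libraries; 215 genes did, of which limma called 3 (1.4%). Among 17 members with CFP1 in 8 or more libraries, limma called 0 differences in peak width at an adjusted p under 0.05, against 1 of 2310 genes (0.0433%), and 1 member had an unadjusted p under 0.05, against 173 genes (7.49%). That member was Rpl38, whose CFP1 peak was 438, 556 and 886 b wide in the KO libraries that held it (CCR6+, NKp46+ and DN of replicate 2), against 846, 1188, 760, 1227, 680 and 1258 b in the WT libraries (limma, log2 difference −0.52 ± 0.21 SE, adjusted p = 0.609). Within replicate 2, which holds all 3 KO peaks, the KO widths lay below the WT widths of 1188, 1227 and 1258 b. The WT widths of replicate 1 have no KO partner and overlapped the KO range.

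H3K4me3 peaks at ribosomal protein genes were slightly narrower in KO than in WT cells relative to each library's median gene, and no member passed the test. Width was the summed length of the peaks touching the windows of a gene, on a log2 scale with the library median of the tested genes set to 0. Of 70 members tested, 52 lay below 0, against 48.2% of the 9253 genes, with a median KO minus WT difference of −0.05 for the members and 0.00 for all genes. limma with subset as a covariate called 0 members at an adjusted p under 0.05; it called 6 genes lower (0.0648%) and 0 higher. At an unadjusted p under 0.05, 6 members were narrower in KO, against 501 genes (5.41%), and 0 were wider, against 333 genes (3.60%; 9.01% in either direction). With replicate number as a block, 8 members were narrower and 2 wider at that level, against 1241 genes in either direction (13.4%), and 0 passed adjustment, while 32 genes (0.346%) were called lower and 6 higher. Without KO DN replicate 2, 10 members were narrower and 2 wider at an unadjusted p under 0.05, against 907 of 9254 genes in either direction (9.8%).

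Without setting library medians to 0, the members' median difference was −0.13 and that of all genes −0.07, with 67 of 70 members and 77.2% of genes below 0 and 0 members at an unadjusted p under 0.05, against 140 genes (1.51%). Libraries of replicate 1 had narrower peaks than those of replicate 2 in both genotypes: the members' median width was 910, 1083.5 and 956.5 b in KO replicate 1 (CCR6+, NKp46+, DN) and 1384, 1331.5 and 1456.5 b in KO replicate 2, against 1192.5, 972 and 1164.5 b in WT replicate 1 and 1455, 1469.5 and 1489 b in WT replicate 2. After centring, the median over members of the KO minus WT difference was below 0 in each of the 6 same-numbered pairs, between −0.15 and −0.0055 on the log2 scale. In the 3 pairs of replicate 1 alone, 47 members lay below 0, against 46.3% of genes. Of the members, 4 were narrower at an unadjusted p under 0.05, against 461 genes in either direction (4.98%). In those of replicate 2 alone, 58 members lay below 0, against 48.2% of genes. Of the members, 13 were narrower and 4 wider at that level, against 1896 genes (20.5%). After adjustment 0 members passed, while 85 genes were called lower (0.919%) and 31 higher (0.335%).

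**Figure D3:**
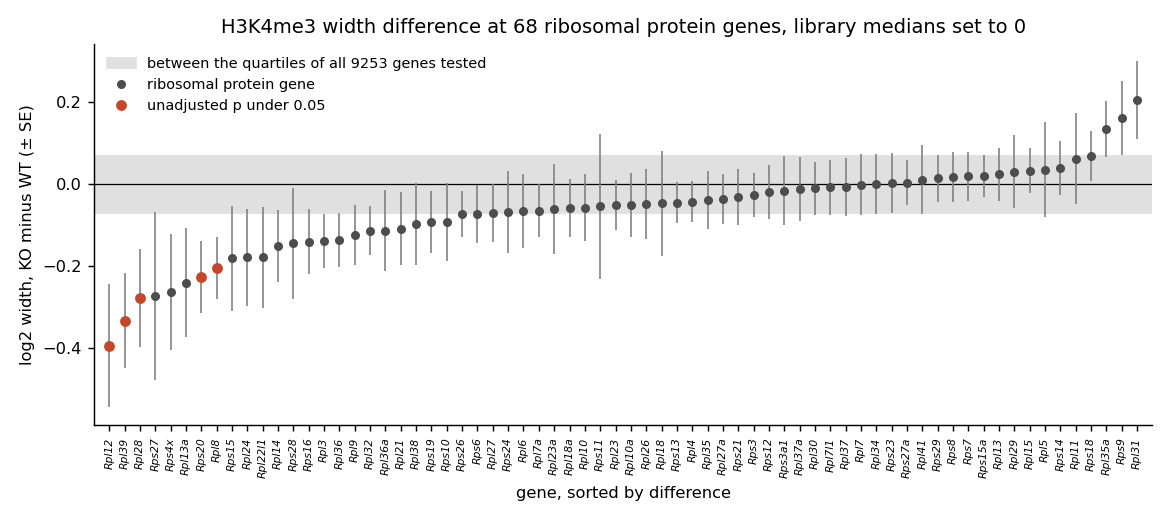
KO minus WT difference in log2 H3K4me3 width with its SE (limma, 12 libraries) for 68 of the 70 ribosomal protein genes tested, sorted, with the range between the quartiles of all 9253 tested genes shaded. Differences run from −0.40 (Rpl12) to 0.21 (Rpl31); the 5 genes in red have an unadjusted p under 0.05 and none passes adjustment.

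The members at the low end were led by Rpl12, a protein at the base of the ribosomal stalk. Its H3K4me3 width was 545, 1501, 648, 975, 873 and 1693 b in KO (CCR6+ replicates 1 and 2, NKp46+ 1 and 2, DN 1 and 2), against 1061, 1486, 846, 1604, 1473 and 1706 b in WT. The log2 difference was −0.40 ± 0.15 (SE; limma, unadjusted p = 0.0244, adjusted p = 0.483), lower in 4 of 6 pairs, and the ranges of the genotypes overlapped. On chromosome 2, the upstream end of the Rpl12 peak lay between 32961353 and 32961430 in all 12 libraries, while its downstream end lay at 32961968 in KO CCR6+ replicate 1, the nearest, and at 32963111 in DN replicate 2 of both genotypes, the farthest.

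Rpl39, a small protein of the peptide exit tunnel encoded on the X chromosome, was 845, 1617, 897, 1565, 883 and 1717 b wide in KO, against 1334, 1747, 1370, 1913, 1369 and 1903 b in WT. It was lower in 6 of 6 pairs, with a log2 difference of −0.33 ± 0.12 (SE; adjusted p = 0.418, limma), and the ranges overlapped. Rpl28, whose promoter is shown above, was 638, 1145, 791, 1151, 566 and 1336 b in KO, against 952, 1430, 826, 1454, 976 and 1368 b in WT, also lower in 6 of 6 pairs (−0.28 ± 0.12, adjusted p = 0.523). CFP1 was listed at Rpl39 in 1 KO library and at Rpl28 in none. Rps20 (−0.23 ± 0.09) and Rpl8 (−0.21 ± 0.08) also had an unadjusted p under 0.05, with Rpl8 lower in 6 of 6 pairs and Rps20 in 5. Rps27 (−0.27 ± 0.21) and Rps4x (−0.26 ± 0.14) completed the 5 largest decreases and did not reach that level without pairing. With the replicate block, Rps27, lower in 6 of 6 pairs, had an unadjusted p of 0.0216 and an adjusted p of 0.277 (limma). Rps4x had an unadjusted p of 0.102 with the block.

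The largest differences in the other direction were smaller. Rpl31, a large-subunit protein, was 1288, 1557, 1388, 1649, 1278 and 1327 b wide in KO, against 1215, 1303, 1175, 1465, 1172 and 1413 b in WT, a log2 difference of 0.21 ± 0.10 (unadjusted p = 0.0539, adjusted p = 0.568, limma). With the replicate block its unadjusted p was 0.0163 and its adjusted p 0.260 (limma). Rps9 had a difference of 0.16 ± 0.09 (with the replicate block, unadjusted p = 0.0414 and adjusted p = 0.348, limma), Rpl35a 0.13 ± 0.07, Rps18 0.07 ± 0.06 and Rpl11 0.06 ± 0.11, with the genotypes overlapping at each. The differences of Rps18 and Rpl11 turned to −0.0061 and −0.012 without centring. Of the 70 members, 7 were lower in KO in 6 of 6 pairs and 0 were higher in 6 of 6. The same counts over all genes are not given here, so whether the members differ from other genes in this was not tested.

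**Figure D4:**
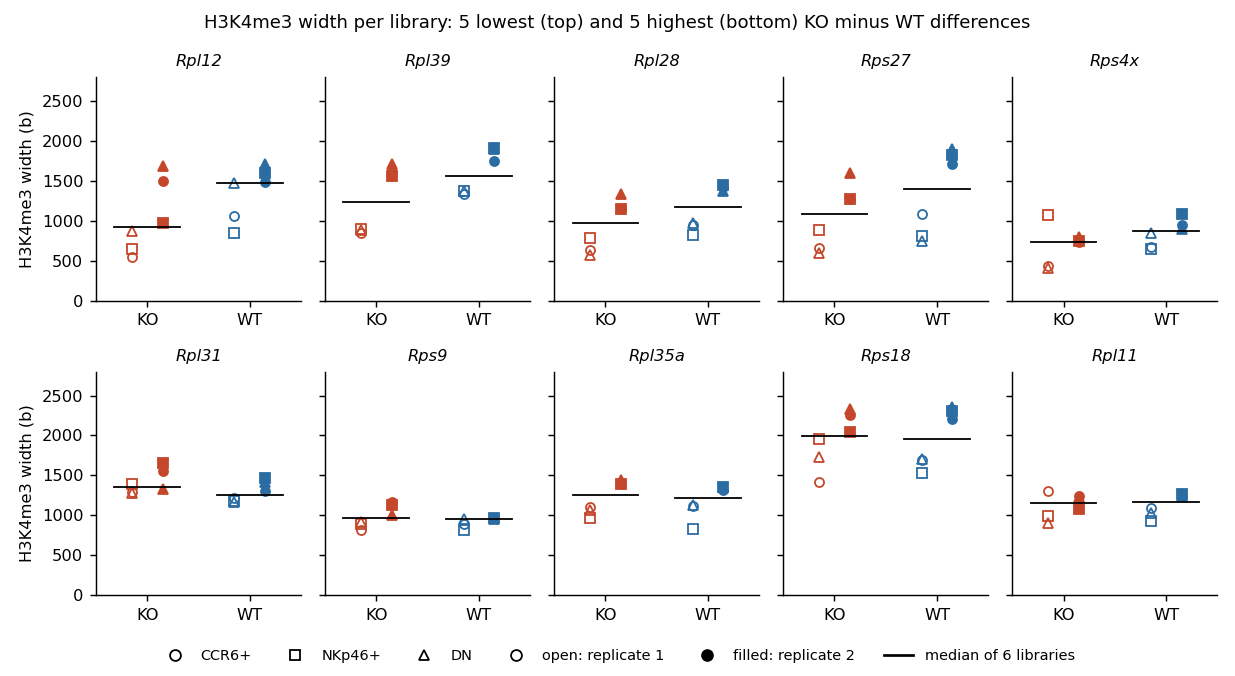
H3K4me3 width (b) in each library for the 5 ribosomal protein genes with the lowest (top row) and the 5 with the highest (bottom row) KO minus WT difference, KO left of WT; shapes mark subsets, open symbols replicate 1 and filled symbols replicate 2. In the top row the KO medians lie below the WT medians (Rpl12 at 924 b in KO and 1479.5 b in WT), and for Rpl12, Rpl39 and Rpl28 replicate 2 lies above replicate 1 in every subset of both genotypes.

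Placed on the annotated start, the members' H3K4me3 reached less far into the gene in KO than in WT cells. For the 46 marked members with a single start, the downstream edge of the strongest peak lay at a median of 567.5 b in KO and 779 b in WT (CCR6+ replicate 1), 857.5 b in KO and 1018 b in WT (CCR6+ replicate 2), 583 b in KO and 653 b in WT (NKp46+ replicate 1), and 776.5 b in KO and 1050.5 b in WT (NKp46+ replicate 2). In DN cells it lay at 608 b in KO and 755 b in WT for replicate 1, and at 1007 b in KO and 1041 b in WT for replicate 2. The KO edge was nearer the start in 6 of 6 pairs, least so in DN replicate 2. Over all marked genes with a single start the KO edge was nearer in 5 of 6 pairs, for example 538 b in KO and 688.5 b in WT in CCR6+ replicate 1, and the exception was NKp46+ replicate 1 with 634 b in KO and 565 b in WT. Taking each gene's median over its libraries, the edge lay at 706.5 b in KO and 905.75 b in WT for the members and at 706.75 b in KO and 774 b in WT for marked genes, a description with no test.

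The upstream edge lay farther from the start in KO in 4 of 6 pairs, including all 3 of replicate 2. Over libraries it lay at −409.25 b in KO and −381.5 b in WT for the members, and at −438.5 b in KO and −409 b in WT for marked genes. H3K4me3 summits lay downstream of the start, at a median of 153.5 b in KO and 187 b in WT for the members. CFP1 summits lay nearer the start, at 5 b in KO (27 members) and 80.5 b in WT (36 members), against 47 b in KO and 73 b in WT for marked genes.

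**Figure D5:**
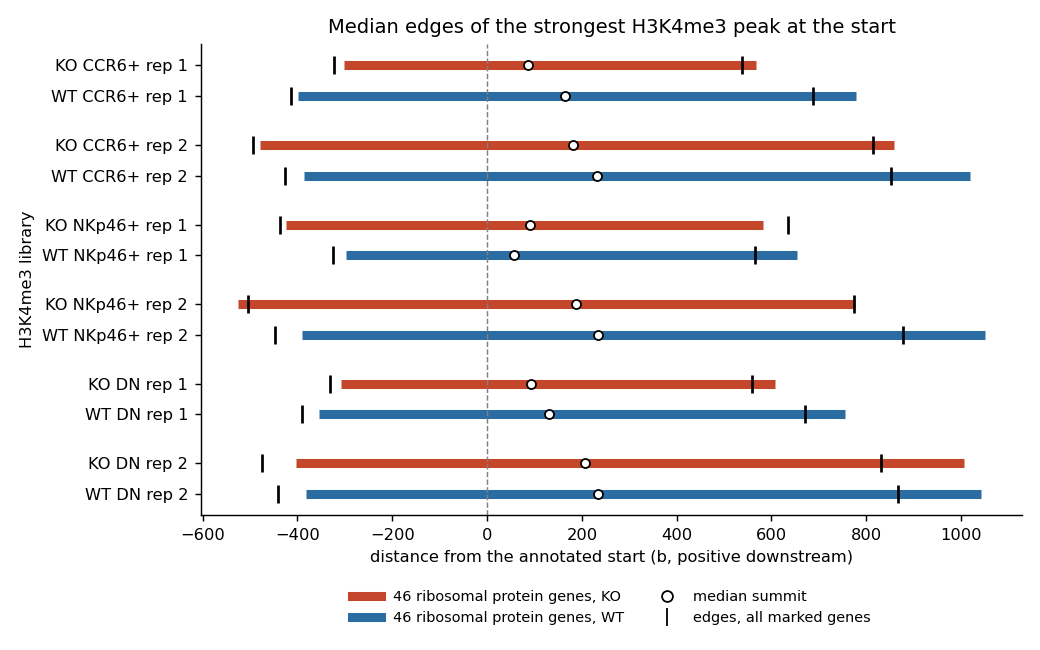
Median upstream and downstream edges (bar ends) and summits (circles) of the strongest H3K4me3 peak at the start of 46 ribosomal protein genes, in b from the annotated start, per library with each KO library above its WT partner; ticks mark the edges over all marked genes. The downstream bar end lies nearer the start in KO in 6 of 6 pairs, and replicate 2 bars reach farther than replicate 1 bars.

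Members differed more among themselves than between genotypes in the extent of H3K4me3. The 5 widest in WT were Rpl4 (median 2511.5 b in KO, 2651.5 b in WT), Rpl7 (2242.5 b in KO, 2351 b in WT), Rpl41 (2225.5 b in KO, 2327 b in WT), Rpl7l1 (2285.5 b in KO, 2325 b in WT) and Rpl13a (1846 b in KO, 2289 b in WT). The peaks of Rpl4, Rpl7, Rpl41 and Rpl7l1 touched the window of another coding gene in all 12 libraries, Snapc5 and Zwilch in the case of Rpl4. The narrowest by the gene-end windows were Rpl18 (531 b in KO, 612.5 b in WT), Rpl23a (739 b in KO, 749 b in WT), Rpl36a (786 b in KO, 855 b in WT), Rps4x (739 b in KO, 870.5 b in WT) and Rps24 (789 b in KO, 909.5 b in WT). The Rpl18 widths leave out the peak at its start, which the promoter table places at 45718071 of chromosome 7, inside the gene (45715467 to 45720835). That peak ran from −498 to 701 b in KO and from −543 to 830 b in WT (medians), short of both windows. The 16 marked members that shared a peak with another coding gene had a median width of 1445.25 b in KO and 1584.25 b in WT, and the other 54 had 1150.5 b in KO and 1263 b in WT. CFP1 was listed in a median of 2 KO and 5 WT libraries at the 16, and 1 KO and 3 WT libraries at the 54.

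Ribosomal protein genes often carry small nucleolar RNA genes, which guide rRNA modification, in their introns, and 26 of the 70 marked members held 50 annotated ones. Hosts and the other 44 members both had CFP1 in a median of 1 KO and 4 WT libraries, and their H3K4me3 medians were 1247.5 b in KO and 1337.5 b in WT for hosts, and 1190 b in KO and 1309.75 b in WT for the rest.

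Across subsets, limma called 0 members for H3K4me3 width, against 0 of 9253 genes (0%); at an unadjusted p under 0.05 there were 2 members (Rpl13a and Rpl12), against 265 genes (2.86%). Rpl13a, which in human cells leaves the ribosome to silence inflammatory messages, was narrowest in CCR6+ cells: 996 and 1448 b in KO CCR6+, against 2120 and 2516 b in KO NKp46+ and 1572 and 3181 b in KO DN, and 2328 and 1632 b in WT CCR6+, against 1836 and 2948 b in WT NKp46+ and 2250 and 3091 b in WT DN (unadjusted p = 0.00358, adjusted p = 1.00, limma). WT CCR6+ replicate 1 did not follow this order. The genotype by subset interaction called 0 members and 0 genes (0%), with 0 members at an unadjusted p under 0.05, against 143 genes (1.55%), and Rpl9 was lowest among the members (limma, adjusted p = 0.999).

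Other genes of the translation apparatus showed the same direction in CFP1 as most genes tested, and none was called. Of all 5741 genes tested, 91.2% had fewer KO libraries, and 7.51% had fewer at an unadjusted p under 0.05. The lists below also hold genes outside the test, so their counts have a different base from these shares. Of 35 initiation factor genes, the means were 11.8 in KO and 24.5 in WT, with 4 at an unadjusted p under 0.05 (Eif3c and Eif3e with 0 KO and 5 WT libraries, and Eif3d and Eif4h with 1 KO and 6 WT). Of 43 ribosome biogenesis genes the means were 11.3 in KO and 26.5 in WT, with 2 at that level (Gar1 and Riok2, each 1 KO and 6 WT). Of 10 elongation factor genes they were 3.83 in KO and 6.17 in WT, and of 13 genes of RNA polymerase I and its factors 1.33 in KO and 3.17 in WT. Mitochondrial ribosomal protein genes had 11.2 per library in KO and 30 in WT of 78, with 4 at an unadjusted p under 0.05. Among the members, the 19 genes mutated in Diamond-Blackfan anaemia had 3.33 in KO and 9.5 in WT, with 14 having fewer KO libraries, and the 4 listed Mdm2 regulators 0.667 in KO and 2 in WT.

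Marks of other cell types were measured beside these results. H3K4me3 was listed at a mean of 2.33 of 3 T cell genes (Cd3d, Cd3e, Cd3g) in KO and 2.83 in WT libraries, at 0.167 of 4 B cell genes in KO and 0 in WT, at 0.667 of 4 myeloid genes in KO and 0 in WT, and at 2.17 of 4 epithelial genes in KO and 1.83 in WT. Of the epithelial genes, Epcam was listed in 6 KO and 6 WT libraries, Cdh1 in 5 KO and 5 WT, Krt8 in 2 KO and 0 WT, and Vil1 in none. Among B cell genes, Cd79a was listed in 1 KO and 0 WT libraries, and Ms4a1 and Pax5 in none. Of the myeloid genes, Spi1 was listed in 2 KO and 0 WT libraries, Itgam and Lyz2 each in 1 KO and 0 WT, and Csf1r in none. Ribosomal protein genes are active in nearly every cell type, and the part of other cells in the values above was not tested.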

How the data were processed

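CUT&Tag libraries (12 CFP1, 12 H3K4me3) of sorted small-intestinal ILC3s were grouped by genotype, subset and antibody from the sample titles. The submitters' processing notes name mm10 as the build, MACS2 2.2.7.1, ChIPseeker 1.28.3, Picard, Bowtie2 2.3.5.1 and fastp 0.19.7, without roles; settings and any control library are not given in the sources used. Each library has its own peak list, in which the authors deposited for every peak a ratio, its fold enrichment, and p-value and q-value as −log10. These deposited values were used only to rank or filter peaks within a list.

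Gene positions came from a RefSeq table of GRCm38.p6. Presence per gene was compared between 6 KO and 6 WT libraries by two-sided Fisher's exact tests over genes present in 2 to 10 of 12 libraries. Summed peak width was compared with limma 3.58.1 (R 4.3.3, trended prior, subset as covariate) over genes with a peak in all 12 libraries. Both used Benjamini-Hochberg adjustment over all genes tested and a threshold of 0.05. Both were also run on simulated data, and the outcome of those runs is not given here. Further software was matplotlib 3.10.9, SciPy 1.17.1, pandas 2.3.3, NumPy 2.4.6 and Python 3.11.15.

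Libraries with the same subset and replicate number deviated together: KO and WT deviations correlated by 0.26 to 0.41 for H3K4me3 width and by 0.14 to 0.33 for CFP1 width in the 3 subsets, so the numbers were taken to pair the samples. The fits without pairing are the main ones. Named genes were members 5 or more libraries apart in CFP1 or with CFP1 in 0 libraries, members lacking H3K4me3 in a library, the 5 extremes by width difference, WT width and CFP1 rank, and the smallest p across subsets and for the interaction; Rpl36, Rpl18, members with 2 or 3 KO and 6 WT libraries and single examples in the promoter text were added after their values were seen. The members and lists were chosen with earlier results of these data known. In the lists, 1 paralog and 1 polymerase I gene were not found in the table. A few items are not reported here.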

Additional observations from a re-analysis of the deposited data

Results flagged for a closer look

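Values far from the other 5 libraries of their genotype were looked for in 40 groups of 6, where chance flags about 1 in 20, and 7 were found, all in centred log2 H3K4me3 width. Rps4x was high in KO NKp46+ replicate 1 (−0.089) and Rpl11 was high in KO CCR6+ replicate 1 (0.50). In WT NKp46+ replicate 1, Rpl31 (0.30) and Rpl9 (0.49) were high and Rpl35a was low (−0.21). In WT CCR6+ libraries, Rpl13a was low in replicate 2 (0.23) and Rps20 was high in replicate 1 (0.35).

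The widths of 19 named members were looked at, not all 70. At 3 of the 19, both pairs of 1 subset moved one way and both pairs of another the opposite way, and in each case the difference between subsets had an adjusted p of 0.999 in the limma interaction test. Rpl11 was wider in KO CCR6+ (mean log2 difference 0.31) and KO DN (0.031) and narrower in KO NKp46+ (−0.16). Rps21 was narrower in KO NKp46+ (−0.25) and wider in KO DN (0.071). Rpl10a was narrower in KO CCR6+ (−0.27) and KO DN (−0.032) and wider in KO NKp46+ (0.15).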

How the results depend on the processing

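For CFP1 presence, the count of members called was 0 under the other windows, filters and overlaps tried, except that leaving out 1 library gave 0 to 4, and 11 without KO DN replicate 2 and KO NKp46+ replicate 2, a pair chosen after seeing the data. Members at an unadjusted p under 0.05 numbered 6, and 2 when only peaks with a fold enrichment of at least 5 counted, 3 with a −log10 q of 5 or more, 0 with the replicate block, 6 to 16 without 1 library and 21 without both. Of all genes tested the share was 7.51%, and 9.12% at that fold enrichment and 9.60% at that q. The block uses the same libraries and peaks as the unpaired test. Its 0 could not be otherwise, since only 6 WT and 0 KO libraries can give it a p under 0.05, a pattern that 0 members had. The causes of the other changes were not tested. Members with fewer KO libraries numbered 54 to 58 without 1 library, and the difference in members per library was −30.5 to −22.3. H3K4me3 width and presence called 0 members under each alternative run, as did the subset and interaction tests. CFP1 width says nothing here, since only 3 of 20 settings had a member to test. Members at an unadjusted p under 0.05 in H3K4me3 width numbered 6, and 0 without centring. They numbered 10 with the replicate block (which changed no adjusted call of a member), 17 with replicate 2 alone (chosen later) and 5 to 12 without 1 library. Members below 0 numbered 47 to 57 without 1 library, against 46.2% to 52.1% of genes. Rps18 reversed to −0.0061 without centring and −0.026 in replicate 2 alone; Rpl11 reversed to −0.012 and −0.053 there and, without KO CCR6+ replicate 1, to −0.051, within −0.051 to 0.11 without 1 library; the cause was not tested. Depth is unknown, so neither missing peaks nor narrow ones can be set against it.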
